A study of Drosophila melanogaster with 76 samples.

Results

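RNA polymerase II (Pol II) was mapped by ChIP-seq in Drosophila melanogaster larvae labelled 48AEL, in wild type and in a group titled zygotic mutant. The data were 4 peak lists, 2 per genotype, of 40 lists used from a series of 76 samples. The other lists came from embryos labelled 1–1.5 h or 2.5–3 h and served for comparison here. A region was a stretch of merged peaks that both lists of a genotype overlapped by at least 1 bp, which gave 4457 wild-type and 4461 mutant regions. The labels name neither the gene nor the allele that is mutant, nor the strain, the driver, the sex or the food of the larvae, and they do not give the unit of 48AEL. The series is named after maternal IntS11, and the titles of its Pol II, pSer5, GAF and Zelda embryo samples, wild type and mutant alike, carry the words IntS11 mislocalized, which the larval titles lack. The tissue is given only as larva, although the shared protocol speaks of fixed embryos. ChIP was run in duplicate. The labels do not say whether the replicates were collected separately, so the p-values below measure only the spread between lists.

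Pol II transcribes all protein-coding genes and most small nuclear RNA (snRNA) genes, and in flies it often pauses just downstream of the start of heat shock and developmental genes. Integrator is a large complex that travels with Pol II. Its subunit IntS11 is the endonuclease that cuts nascent snRNAs at their 3′ end, and it also ends short transcripts of paused Pol II. Fly eggs are loaded with maternal gene products, and an animal mutant for its own copies of such a gene can draw on that store until it runs out.

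The lists hold peak positions on build dm6 and no heights, so the length of a peak was the only measure of how much of a locus was called. Wild-type lists held 8196 and 5694 peaks, and mutant lists held 5987 and 6902. They covered 5.80 and 3.84 Mb in wild type against 4.15 and 4.99 Mb in the mutant. Both mutant lists lay between the wild-type ones in number and in length covered. The log2 ratio of mutant to wild type was -0.09 for the number (6945 ± 1769 against 6444.5 ± 647, SD, n = 2, two-sided exact permutation p = 1) and -0.05 for the covered length (4.82 ± 1.38 against 4.57 ± 0.595 Mb, p = 1). Without wild-type replicate 1 these ratios were 0.17 and 0.24, and without mutant replicate 1 they were 0.01 and 0.08, so a single list set their sign. With 2 lists against 2 the smallest p this test allows is 0.333, so no difference in a list's total could pass 0.05.

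A larger part of the mutant lists lay at genes. Peaks within 500 bp of a gene's start or end made up 59.1% and 64.8% of the wild-type lists and 70.3% and 68.2% of the mutant lists. The mutant lists were both higher, by 7.29 percentage points on average (exact permutation p = 0.333, the smallest possible). Peaks between genes made up 10.6% and 9.96% in wild type against 6.75% and 6.82% in the mutant. Peaks in centromere-proximal windows of the large arms were 6.45% and 5.99% against 5.19% and 5.29%, again without overlap between the groups (-0.98 points, exact permutation p = 0.333). The median peak measured 526 and 517 bp in the wild-type lists against 534 and 551 bp in the mutant ones.

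**Figure D1:**
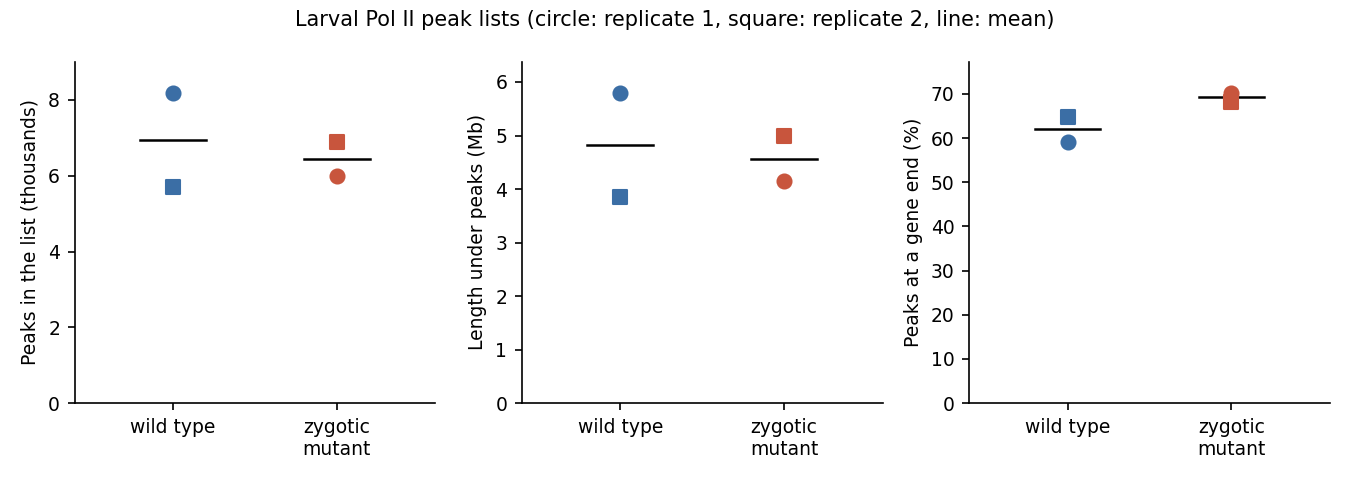
Number of peaks (in units of 1000), length under peaks (Mb) and share of peaks within 500 bp of a gene end (%) in each larval Pol II list, with circles for replicate 1, squares for replicate 2 and lines for the mean of 2 lists. The mutant lists lie between the wild-type ones in number and length, and both lie above them in the share at gene ends.

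Most Pol II regions of wild-type larvae were also occupied in the mutant. Of 4457 wild-type regions, 3449 (77.4%) were met by peaks of both mutant lists and are called kept, 562 (12.6%) by 1 list, and 446 (10%) by neither and are called lost. Of 4461 mutant regions, 309 (6.93%) were met by no wild-type peak and are called gained. Peaks of a pair of lists met each other about as often between genotypes as within them. The mean share met was 69.0% for the wild-type pair and 71.9% for the mutant pair, and it ranged from 67.5% to 68.5% over the 4 pairs of unlike genotype. With a list left out a single peak suffices to make a region, and the shares move by construction: without wild-type replicate 2, 49.9% of regions were kept and 31.1% lost, and without mutant replicate 1, 21.7% were gained.

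The lost regions were short and lay away from gene ends. Their median length was 564 bp, against 942 bp for kept and 535 bp for gained regions. At gene ends lay 29.1% of lost, 80.6% of kept and 67.0% of gained regions, while 27.1% of lost, 4.73% of kept and 7.77% of gained regions lay between genes. Centromere-proximal windows held 14.1% of lost, 4.06% of kept and 9.39% of gained regions. Seen from the wild type, 26.3% of 240 centromere-proximal regions were lost against 9.08% of the 4217 elsewhere, and 4.02% of the 3235 regions at a gene end against 25.9% of the other 1222. Regions are not replicates, so these shares are a description without a test.

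Length went with persistence. The share of wild-type regions kept was 53.8% for regions of 241 to 589 bp, then 74.2%, 86.1% and, for regions over 1242 bp, 95.5%. The share lost went from 21.6% to 2.42%. The part of calling depth in this gradient was not tested, since the lists hold no reads.

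**Figure D2:**
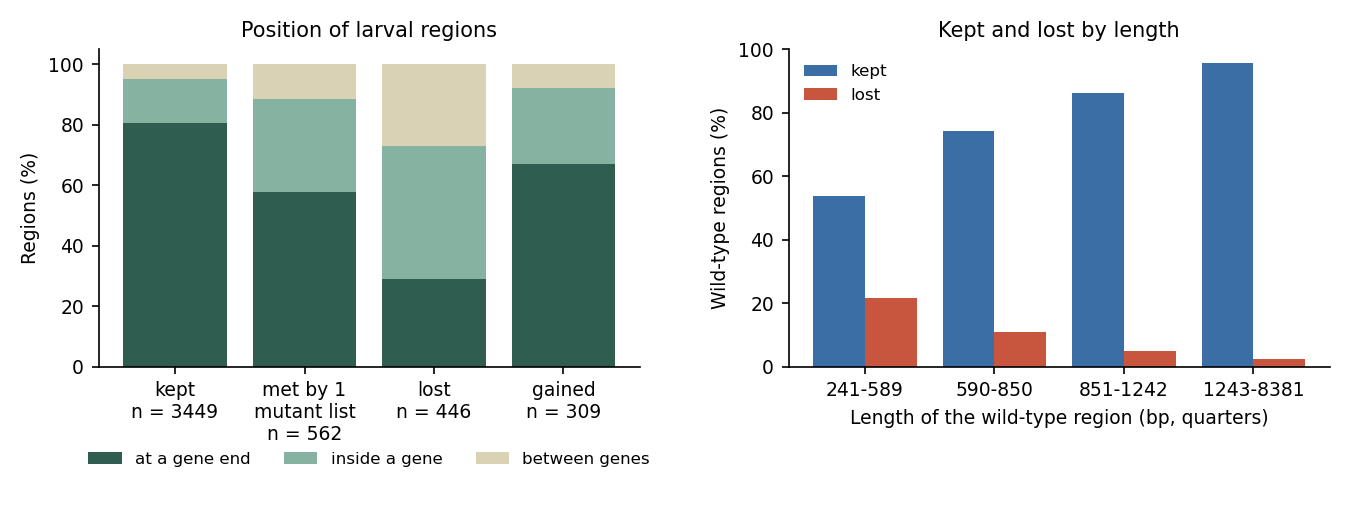
Left, share (%) of kept, partly met, lost and gained larval Pol II regions at a gene end, inside a gene or between genes, with the number of regions under each bar; right, share of wild-type regions kept and lost in 4 classes of region length (bp) of like size. Lost regions lie at gene ends in 29.1% of cases against 80.6% for kept ones, and the kept share goes from 53.8% in the shortest class to 95.5% in the longest.

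Sites kept in larvae were largely those that Pol II and IntS11 held in embryos at 2.5–3 h. Peaks of the wild-type Pol II lists at 2.5–3 h met 75.4% and 74.3% of the kept larval regions, 29.6% and 26.2% of the lost ones, and 56.0% and 54.0% of the gained ones. For pSer5, the form of Pol II that has left initiation, with serine 5 of its tail repeat phosphorylated, the shares were 78.7% and 78.2% of kept, 35.4% and 32.7% of lost, and 64.4% and 63.4% of gained regions. IntS11 peaks at 2.5–3 h met 60.5% and 63.3% of kept, 14.8% and 17.0% of lost, and 29.4% and 32.7% of gained regions. Kept regions stood highest with each of these antibodies and lost regions lowest, and the replicate lists of an antibody differed by at most a few points.

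For IntS11 the shares were also read by length and by position, taken one at a time, and kept regions stood above lost ones in each class. Among regions of up to 589 bp 51.2% and 54.9% of kept against 16.9% and 18.2% of lost regions met an IntS11 peak, and among those over 1242 bp 63.5% and 66.6% against 14.8% and 18.5%. At gene ends the shares were 64.9% and 67.7% for kept, 26.2% and 30.8% for lost, and 36.7% and 41.5% for gained regions. Gained regions did not keep their place between the others: over 1242 bp, 11.1% and 11.1% of only 9 gained regions met an IntS11 peak.

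GAF and Zelda are pioneer factors of the embryo, which make closed chromatin accessible, and their wild-type lists also met kept regions more often than lost ones. GAF peaks of wild-type embryos at 2.5–3 h met 63.5% and 63.6% of kept, 37.4% and 30.5% of lost, and 35.3% and 31.4% of gained regions. Zelda peaks met 67.4% and 69.7% of kept and 34.3% and 42.6% of lost regions. In mutant embryos at 1–1.5 h lost regions stood highest for Pol II, Zelda and GAF. Pol II peaks met 22.9% and 19.5% of lost against 17.4% and 15.7% of kept regions, and Zelda peaks 8.07% and 4.71% against 3.36% and 2.90%. GAF peaks met 10.4% and 8.21% of kept, 38.8% and 25.6% of lost, and 3.24% and 1.62% of gained larval regions. At 2.5–3 h in those mutants kept regions stood higher for GAF, with 21.5% and 25.5% against 11.4% and 17.7% of lost ones. For Zelda the shares were 12.8% and 10.1% of kept against 7.85% and 5.38% of lost regions. Pol II peaks still met lost regions more often, 4.48% and 4.26% against 3.13% and 3.51% of kept ones.

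**Figure D3:**
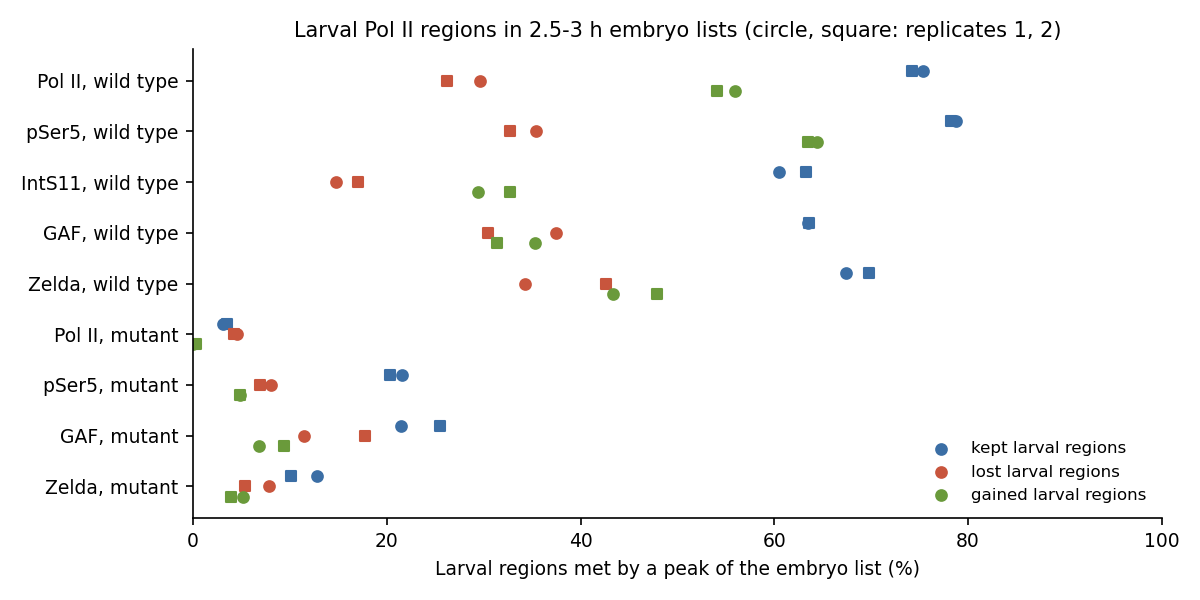
Share (%) of kept, lost and gained larval Pol II regions that meet a peak of each list from 2.5–3 h embryos, with circles and squares for the replicate lists. With the wild-type Pol II, pSer5 and IntS11 lists the kept regions lie highest and the lost lowest, and with the Pol II lists of mutant embryos every class lies under 5%.

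The larval mutant differed from the embryo mutant in scale. At 2.5–3 h, 1.09% of 7089 wild-type Pol II regions were kept in the mutant and 97.8% were lost, whereas in larvae 77.4% were kept. The log2 ratio of mutant to wild type for covered length was -0.05 in larvae and -1.61 in these embryos, a difference of 1.56 (two-sided exact permutation within stages, p = 0.222, the smallest possible being 0.0556). For the number of peaks the ratios were -0.09 and -0.85 (difference 0.76, exact permutation p = 0.222). On the chromosome arms without centromere-proximal windows the differences were 3.45 for covered length and 2.39 for number. The difference in number was 1.68 with peaks of at least 500 bp, 1.43 with joined intervals and 0.50 without wild-type replicate 2. Of the 4430 genes kept in larvae, 3778 (85.3%) were bound in wild-type embryos at 2.5–3 h, and 3654 of those (96.7%) had no Pol II peak in either mutant embryo list. That share is not particular to kept genes. It was 89.4% for genes lost in larvae, 97.8% for gained ones and 94.5% (1179 of 1247) for genes with no larval peak.

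A gene was called bound when peaks of both lists of a genotype met a window of 500 bp on each side of either end of the gene. Of 14238 genes, 5022 (35.3%) were bound in wild type and 5443 (38.2%) in the mutant. Of the wild-type bound genes 4430 (88.2%) were kept in all 4 lists and 132 (2.63%) had no mutant peak. Of the mutant bound genes 251 (4.61%) had no wild-type peak. At kept genes the peaks were longer in both mutant lists than in either wild-type list at 863 genes (19.5%) and shorter at 643 (14.5%). The median log2 ratio of summed peak length was 0.03. If the lists were exchangeable, the groups at a gene would still separate, in either direction, with a probability of 0.333. That is the smallest p of the two-sided exact permutation test with 2 lists against 2. Separated groups at a single gene are therefore no evidence of a change in the mutant. The shares of 19.5% and 14.5% add up to close to 0.333, so separated groups were about as frequent as exchangeable lists would give. The shares were not tested against that probability. Lost genes numbered 635 without wild-type replicate 2 and gained genes 916 without wild-type replicate 1, where a single wild-type list decides the call.

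Markers of several larval tissues were occupied and others were not. The muscle genes Mhc, Mlc2 and Act57B, the neuronal genes elav and brp, and apolpp, which encodes the fat body's lipoprotein, were bound in all 4 lists. The neuronal marker nSyb had no peak in any list and Syt1 had one in a single list of each genotype, and 5 of 19 neuronal genes were bound in wild type. No list had a peak at the fat body storage protein genes Lsp1alpha and Lsp2, at the gut enzyme genes Jon65Aiv, Mal-A1 and Amy-p, or at the cuticle genes Lcp1 and Lcp2. Other gut genes were occupied: LysB, for a lysozyme, had 1121 and 615 bp of peak in wild type against 446 and 322 bp, and Jon65Ai, for a protease, had 856 and 566 bp against 534 and 456 bp, both shorter in the mutant. Of 45 gut enzyme genes, mutant replicate 2 had a peak at 10 and each other list at 2. The early embryo genes eve, ftz, hb, sna and twi had no peak either, while Kr had one in all 4. Larvae mix tissues, so a different share of a tissue and a different occupancy per cell cannot be told apart in these samples.

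Heat shock genes encode chaperones that hold or refold damaged proteins, and a part of them had shorter peaks in the mutant. Of 17 genes in the list, 16 were bound in wild type and 13 in all 4 lists. Peaks were shorter in both mutant lists at 6 of the 13 and longer at 0, beside 14.5% and 19.5% of all kept genes, with a median log2 ratio of -0.52 against 0.03 over all kept genes. Hsp22, a small heat shock gene for a mitochondrial chaperone, had 1963 and 1499 bp of peak in the wild-type lists against 788 and 818 bp in the mutant ones (log2 ratio -1.11). Hsp23 had 3167 and 1728 bp against 1363 and 1015 bp (-1.04), and Hsp26 had 1709 and 1688 bp against 1371 and 1241 bp (-0.38). They are among the 6 genes counted as shorter, so both mutant lists lay under both wild-type lists by definition. Shorter and longer genes numbered 10 and 0 without mutant replicate 2, 7 and 4 without mutant replicate 1, and 7 and 3 without wild-type replicate 1.

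The Hsp70 genes, which encode the main inducible chaperone, went the same way in part. At Hsp70Ba the peaks summed to 1082 and 1087 bp in the wild-type lists and to 390 and 475 bp in the mutant (log2 ratio -1.33). At Hsp70Bb they summed to 638 and 1103 bp against 472 and 416 bp (-0.97). Hsp70Bbb had 554 and 1546 bp in wild type and no mutant peak at its ends, as had CG4456 (Hsp67Bb) with 1963 and 680 bp. Some of the wild-type peaks counted for these genes were still met by both mutant lists outside the gene-end windows. The mutant peaks there are those counted for Hsp70Bb and Hsp22. For Hsp70Bbb they met the 1103 bp peak of wild-type replicate 2, which is also counted for Hsp70Bb. At its other end both wild-type lists had a peak, and neither mutant list had one in that window. For CG4456 they met the 1963 bp peak of wild-type replicate 1 but not the 680 bp peak of replicate 2. Both lost calls therefore hold for the gene-end windows only. The groups overlapped at Hsp70Aa and Hsp70Ab, and Hsp68 ran from 1729 to 2386 bp in wild type and had 732 and 3320 bp in the mutant. The Hsp70 copies are nearly identical, so reads could be split between them, and the small heat shock genes at 67B share peaks with their neighbours.

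At the cognate and constitutive chaperone genes the groups overlapped. Hsp83, the fly Hsp90, had 4995 and 5325 bp in the wild-type lists against 4155 and 5572 bp in the mutant ones. Hsc70-3 had 3023 and 2977 bp against 2919 and 3164 bp, and Hsc70-4 had 4012 and 3128 bp against 3663 and 4016 bp. Mutant values lay on both sides of the wild-type ones at Hsp83 and Hsc70-3. At Hsc70-4 the mutant value of 3663 bp lay between the wild-type ones and that of 4016 bp just above them. Counted once each, the peaks at all heat shock genes together came to 28026 and 22888 bp in the wild-type lists against 18732 and 23540 bp in the mutant ones, so the sums overlapped. MtnA, a metallothionein gene induced by metals and named on the list of genes that Integrator attenuates, had 1414 and 2074 bp in the wild-type lists against 0 and 251 bp in the mutant ones. That list as a whole did not move one way: of its 5 kept genes 2 were longer (pst and Pepck1) and 2 shorter (Hr38 and puc), with a median log2 ratio of -0.09.

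Genes for cytoplasmic ribosomal proteins more often had longer than shorter peaks in the mutant. Of 93 genes, 86 were bound in wild type and all 86 were kept, where 88.2% of all bound genes were. Mutant peaks were longer at 31 and shorter at 5, beside 19.5% and 14.5% of all kept genes, with a median log2 ratio of 0.17 against 0.03. Without 4 kept genes named as paralogues (-like), the counts were 30 and 3 of 82, with a median of 0.18. RpL28 had 5047 and 3190 bp in the wild-type lists against 5657 and 5350 bp in the mutant ones (log2 ratio 0.42). Its longest peaks are shared with the neighbouring gene eIF1, whose groups overlapped (5047 and 2775 bp against 4335 and 5350 bp). RpS2 had 4126 and 3991 bp against 4653 and 4244 bp (0.13). RpS13 had 4779 and 4257 bp against 3044 and 5050 bp, so its groups overlapped. The counts depended on the wild-type lists: without wild-type replicate 2 the ribosomal protein genes came to 32 longer and 25 shorter, and without wild-type replicate 1 to 60 and 7.

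Genes of energy metabolism varied one by one. Of 44 kept genes of oxidative phosphorylation, 11 had longer and 4 shorter mutant peaks, near the 19.5% and 14.5% of all kept genes. ATPsynbeta, the catalytic subunit of ATP synthase, had 2055 and 2478 bp in the wild-type lists against 4177 and 4525 bp in the mutant ones (log2 ratio 0.94), with the mutant lists well above. Among 11 kept glycolysis genes 4 were longer and 1 was shorter, in a list too short to set against those shares. The aldolase gene Ald1 had 2528 and 3263 bp against 4682 and 4899 bp (0.73), whereas Pgk, for phosphoglycerate kinase, had 5596 and 5547 bp against 5376 and 2885 bp (-0.43).

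**Figure D4:**
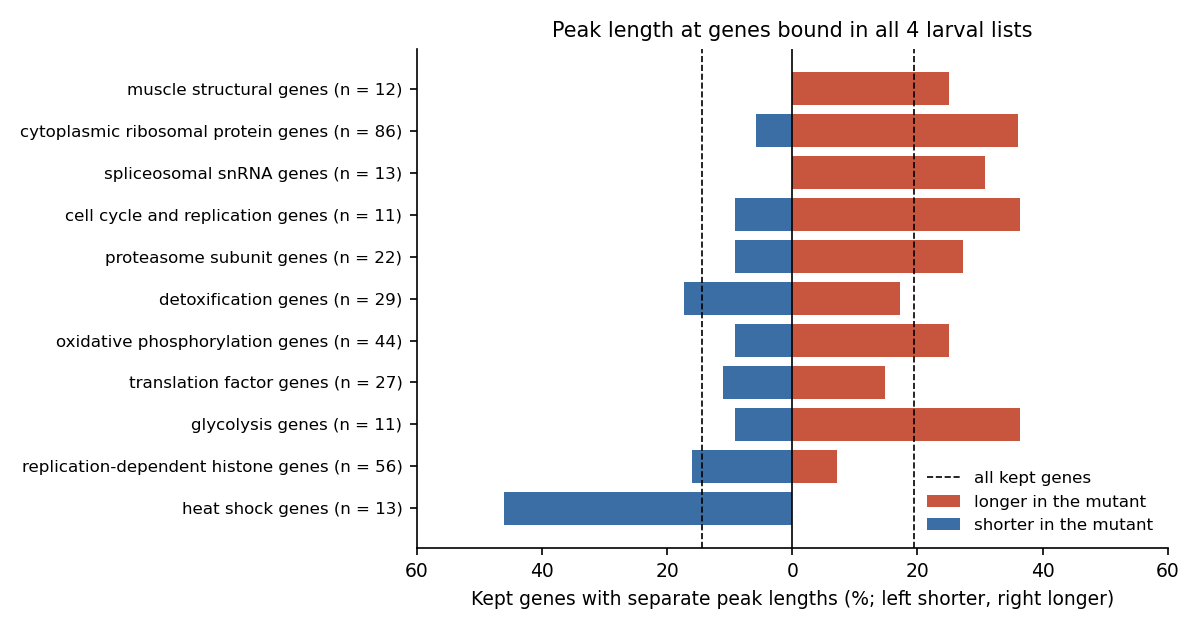
Share (%) of kept genes in each list with at least 10 kept genes whose Pol II peaks were longer (right) or shorter (left) in both mutant lists than in both wild-type lists, with dashed lines at the shares over all 4430 kept genes (19.5% and 14.5%). Heat shock genes have 6 of 13 shorter and 0 longer, and ribosomal protein genes have 31 of 86 longer and 5 shorter.

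Muscle structural genes encode the proteins of the sarcomere. Of 24 genes, 14 were bound in wild type and 15 in the mutant, 12 were kept, 3 had longer peaks and 0 had shorter ones, where 19.5% and 14.5% of all kept genes did, so the 3 of 12 longer genes are near the overall share. The median log2 ratio was 0.33 against 0.03 over all kept genes. Mhc, the single muscle myosin heavy chain gene, had 713 and 658 bp in the wild-type lists against 2152 and 2023 bp in the mutant ones (log2 ratio 1.61). Mlp60A, for a Z-disc LIM protein, had 1262 and 755 bp against 1551 and 2140 bp (0.87), and Mlc1, a myosin light chain gene, had 1002 and 935 bp against 1193 and 1426 bp (0.44). These are the 3 genes counted as longer, so their mutant lists lay above the wild-type lists by definition. Longer genes numbered 7 without wild-type replicate 1, 5 without wild-type replicate 2 and 6 without mutant replicate 1.

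The troponin genes up (troponin T) and wupA (troponin I) and the actin gene Act87E had no wild-type peak at their ends. They had 389 and 1442 bp, 267 and 290 bp, and 374 and 397 bp in the mutant. Other muscle genes overlapped, such as Tm1 (tropomyosin) with 1711 and 875 bp against 1350 and 276 bp, and Prm, sls and TpnC73F lacked a peak in mutant replicate 1. Muscle genes are also muscle markers, and whether the larvae differed in muscle content was not tested.

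Of the cuticle protein genes, several in the 65A cluster on 3L differed. Of 121 cuticle genes, 12 were bound in wild type and 15 in the mutant, with 6 kept, 2 lost and 6 gained. Over all genes 2.63% of those bound in wild type were lost and 4.61% of those bound in the mutant were gained. Lcp65Ab1 had no wild-type peak at its ends and 948 and 1095 bp in the mutant. A peak of wild-type replicate 1 just outside its windows met those mutant peaks. Lcp65Ab2 and Cpr65Ax1 shared peaks of 611 and 581 bp seen in the mutant lists alone. Cpr65Aw in the same cluster had 273 and 283 bp in wild type and 0 in the mutant. Genes of this cluster lie close together, so their windows share peaks and the counts are not of separate events.

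Spliceosomal snRNA genes are the classic targets of Integrator. Of 28 genes, 13 were bound in wild type and all 13 were kept, a share near the 88.2% of all bound genes, and U5:23D was gained with 518 and 439 bp. Mutant peaks were longer at 4 of the 13 and shorter at 0, beside 19.5% and 14.5% of all kept genes, with a median log2 ratio of 0.15. U1:21D had 858 and 682 bp in the wild-type lists against 1239 and 1333 bp in the mutant ones (0.74). U2:34ABa had 2191 and 2331 bp against 2914 and 3708 bp (0.55), U1:82Eb had 1978 and 1813 bp against 2551 and 2364 bp (0.37), and U5:63BC had 2289 and 2222 bp against 2509 and 2771 bp (0.23). These are the 4 genes counted as longer, so by definition their groups did not overlap. The groups overlapped at U1:95Ca (2114 and 1954 bp against 2467 and 1719 bp) and U4:39B (2149 and 1425 bp against 1527 and 1690 bp).

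At 3 of these genes the added length lay mainly on one side. At U2:34ABa the peak reached 411 and 481 bp beyond the gene towards lower coordinates in the wild-type lists against 1387 and 2279 bp in the mutant ones, while on the other side it reached 1588 and 1658 bp against 1335 and 1237 bp. At U1:82Eb the lower side measured 345 and 100 bp against 947 and 845 bp, and at U1:21D 396 and 335 bp against 779 and 809 bp. Of the 26 sides of the 13 kept snRNA genes, peaks reached further in both mutant lists on 7 (26.9%) and on 18.9% of the sides of all kept genes. The median difference in reach was -1.75 bp over the snRNA sides and 7.5 bp over the sides of all kept genes. The gene table gives no strand, so which of these sides is the 3′ side is not known here. Lsp1beta next to U1:21D, CG15482 next to U2:34ABa, Ubc6 next to U1:82Eb and Cht7 next to U5:63BC share these peaks. The signals of these neighbours and of the snRNA genes cannot be told apart. Without wild-type replicate 1 the counts of longer and shorter snRNA genes were 9 and 3, and without wild-type replicate 2 they were 7 and 5.

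**Figure D5:**
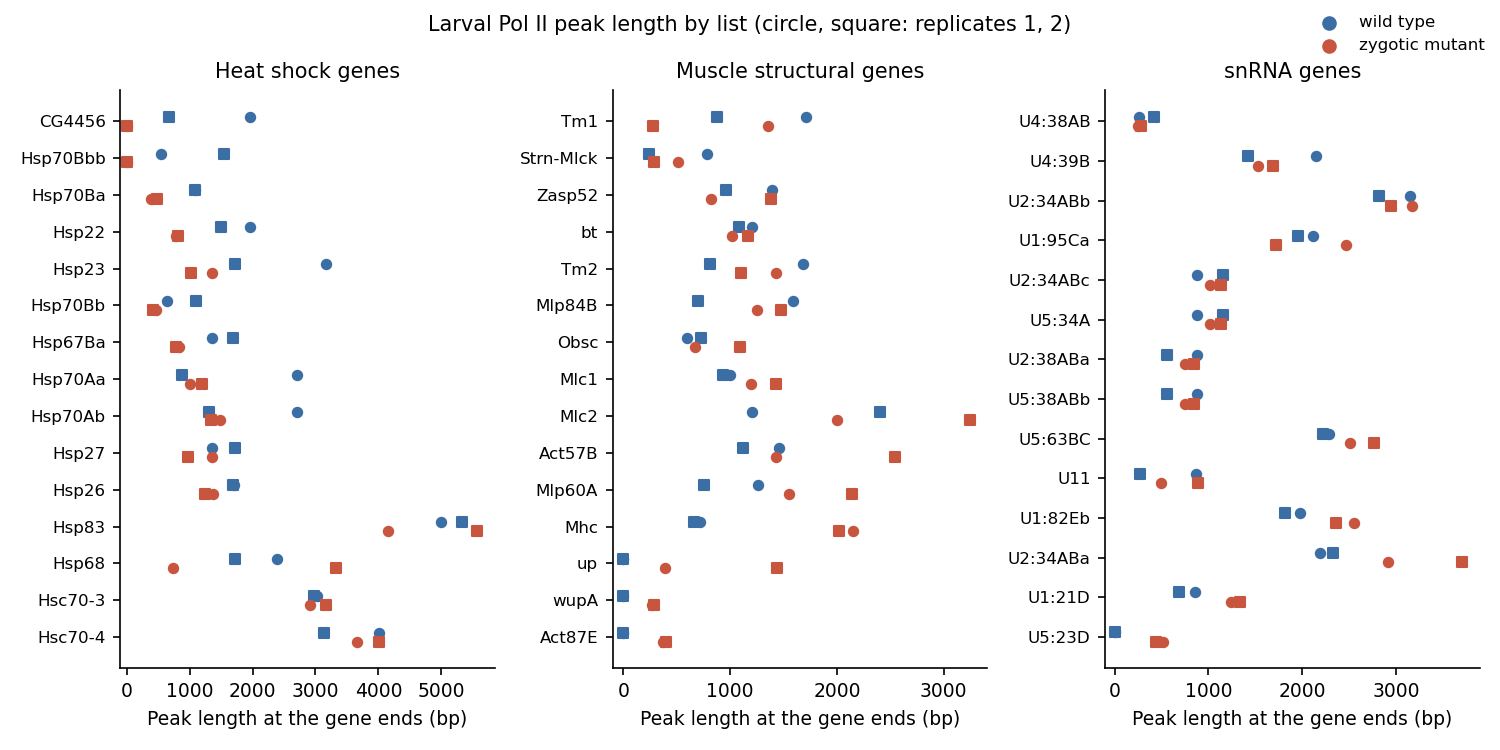
Summed length (bp) of Pol II peaks at the ends of heat shock, muscle structural and snRNA genes that were kept, lost or gained, in each larval list; circles and squares are replicates 1 and 2, and 0 means no peak. Hsp22, Hsp70Ba and Hsp67Ba have both mutant values under the wild-type ones, and Mhc, U1:21D and U1:82Eb have both above.

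Genes of Integrator itself were occupied in part. Of 14 subunit genes with a record, 6 were bound in wild type and all 6 were kept, beside 88.2% of all bound genes. IntS11 itself had 653 and 0 bp in the wild-type lists against 306 and 497 bp in the mutant ones, so it was called in 1 wild-type and both mutant lists. A peak over a gene does not test whether the gene is mutated. IntS14 was gained with 326 and 645 bp. IntS3 had 1028 and 1304 bp in the wild-type lists against 885 and 860 bp in the mutant ones (log2 ratio -0.42), IntS10 had 1189 and 875 bp against 862 and 800 bp (-0.31), and IntS12 had 568 and 466 bp against 454 and 450 bp (-0.19). These 3 of 6 were shorter in both mutant lists and none was longer, beside 14.5% and 19.5% of all kept genes, while IntS6, IntS2 and asun, which encodes subunit 13, overlapped between genotypes.

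Among genes of Pol II itself, 6 of 12 subunit genes were bound in wild type and 5 were kept, beside 88.2% of all bound genes. Mutant peaks were longer at 2 of the 5, beside 19.5% of all kept genes. Polr2A, the largest subunit, had 787 and 778 bp in the wild-type lists against 1003 and 822 bp in the mutant ones (log2 ratio 0.22). Of 8 kept genes for pausing and elongation factors, 2 were longer and 2 shorter, beside 19.5% and 14.5% of all kept genes. Spt5, a subunit of the pausing factor DSIF, had 1754 and 1026 bp against 1787 and 1932 bp (0.42), and Su(Tpl), the fly ELL elongation factor, had 1354 and 1256 bp against 1790 and 1791 bp (0.46). These are the 2 genes counted as longer, so their mutant values lay above both wild-type ones by definition, and by little at Spt5.

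Replication-dependent histone genes, another class of short genes without poly(A) tails, were bound at 73 of 111 copies in wild type and 60 in the mutant, with 56 kept, 3 lost and 1 gained. Over all genes 88.2% of those bound in wild type were kept and 2.63% lost, and 4.61% of those bound in the mutant were gained. At kept copies 4 were longer and 9 shorter, beside 19.5% and 14.5% of all kept genes, with a median log2 ratio of -0.06. The copies are repeats of one unit and the assignment of reads among them is uncertain. In embryos at 2.5–3 h the same 111 copies were bound in wild type and in the mutant alike.

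The genes with the largest changes were taken by a fixed rule of peak length. Among lost genes the longest wild-type peaks were at CG1894, CG17778, CG4456, CG43647, atk, E(spl)m8-HLH, Acsx1L and AOX3. CG1894 had 1871 and 1848 bp in wild type and no peak in the mutant. The peak of wild-type replicate 1, at chr3R:28484433-28486303, spanned the whole gene (28484557 to 28486062). The longest mutant peaks among gained genes were at btn, ey, CG31115, CG7099, CG34316, Mettl4, uncNacbeta and CG42375. CG42375 had 0 bp in the wild-type lists against 1160 and 1121 bp in the mutant ones.

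At many of these genes the peak was not absent from the other genotype but ended elsewhere. Peaks of 5 of the 8 lost genes were met by both mutant lists somewhere along their length, and those of 7 of the 8 gained genes by both wild-type lists. E(spl)m8-HLH, a Notch target, is an example: its 1202 and 1182 bp peaks lie over the start or end of gro, the Groucho corepressor gene, which had 1240 and 1173 bp in the mutant. The 1441 and 1545 bp mutant peaks counted for btn also lie over an end of Efa6, where wild-type peaks measured 675 and 916 bp. Over all genes such cases were fewer. Peaks of 111 of the 132 lost genes (84.1%) met no mutant peak in either list, and those of 223 of the 251 gained genes (88.8%) met no wild-type peak.

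Chosen after their values were seen from the genes whose peaks met none of the other genotype, the lost ones with the longest peaks included AGO3, a Piwi-family gene of the germ line (1222 and 1037 bp in wild type, 0 in the mutant), alphaTub85E, an alpha-tubulin gene (1245 and 682 bp), and loco, a regulator of G-protein signalling in glia (724 and 859 bp). The eye pigment transporter gene w (white) and its neighbour CG32795 shared peaks of 659 and 735 bp in wild type and had none in the mutant. Transgenes in flies often carry a copy of w, and whether the strains differed at it is not stated. Gained genes of this kind included Hinfp, a zinc-finger regulator of histone transcription in mammals (680 and 718 bp), and the translation factor gene eIF2A (629 and 899 bp).

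Among kept genes whose groups did not overlap, the largest log2 ratios of mutant to wild-type peak length were at GstD2, Gmppa, ND-13B, CG10337 and Prp4k. GstD2 had 882 and 383 bp in the wild-type lists against 5142 and 4926 bp in the mutant ones (log2 ratio 2.99). The mutant value includes the long peak over its neighbour GstD1, a glutathione transferase gene induced by oxidative stress, which had 4515 and 4204 bp in the wild-type lists against 4809 and 4613 bp in the mutant ones. Gmppa, for a subunit of GDP-mannose pyrophosphorylase, had 621 and 298 bp against 3031 and 2675 bp (2.63). Its mutant peaks are the same ones counted for its neighbours fus (1404 and 1245 bp) and Vha14-1 (1627 and 1430 bp). In wild type fus had 1058 and 1106 bp of peak that was not counted for Gmppa, so part of the ratio reflects where peaks ended.

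Among kept genes whose groups did not overlap, the lowest ratios were at rost, Alg-2, lawc, the histone copy His3:CG33866 and shd. Alg-2, a calcium-binding protein gene near the centromere of 3R, had 4278 and 4580 bp in the wild-type lists against 885 and 1180 bp in the mutant ones (log2 ratio -2.10). The gene lawc, inside whose span Trf2 starts or ends, had 4071 and 3868 bp against 504 and 1603 bp (-1.91), and Trf2, a TBP-related factor used at ribosomal protein and histone H1 promoters, had 3659 and 3868 bp against 1515 and 1639 bp. The gene shd, the Halloween enzyme that makes active 20-hydroxyecdysone, had 1923 and 1358 bp against 437 and 468 bp (-1.86). Of the wild-type lengths, 1077 and 787 bp are peaks also counted for its neighbour CG9628, which had no mutant peak at its ends. The rule took only genes whose groups did not overlap, so the separation at these 5 genes follows from it. Trf2 shares its wild-type peaks with lawc.

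The counts of the remaining lists stand beside 19.5% longer and 14.5% shorter of all kept genes. Of 29 kept detoxification genes 5 were longer and 5 shorter. Of 11 kept cell cycle and replication genes 4 were longer and 1 shorter, with PolA1, for DNA polymerase alpha, gained. Of 17 ecdysone response genes 8 were bound in wild type and 6 in the mutant, all 6 of them kept, with 1 longer and 1 shorter. Of 22 kept proteasome genes 6 were longer and 2 shorter, and Prosbeta4 was lost while Rpt6 and Prosbeta6 were gained. Over all genes 2.63% of those bound in wild type were lost and 4.61% of those bound in the mutant gained. All 8 bound endocrine growth genes were kept, among them InR, the insulin receptor gene (2191 and 1331 bp against 1292 and 2167 bp), and foxo (1284 and 1691 bp against 1245 and 1434 bp), whose groups overlapped. All 5 bound cell death genes and all 9 bound stress and p53 target genes were kept, beside 88.2% of all bound genes. Sesn, a stress-induced inhibitor of TOR signalling, had 2214 and 2807 bp in the wild-type lists against 1336 and 1111 bp in the mutant ones (log2 ratio -1.04), whereas Thor, the fly 4E-BP, had 3151 and 2501 bp against 2677 and 2661 bp. Salivary glue and antimicrobial peptide genes were not bound in either genotype.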

How the data were processed

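The authors deposited, per larval and embryo sample, 3 columns per called peak, its chromosome, start and end (bp, build dm6), with no height, fold or q. Per the submitters' processing notes the tools included MACS2 2.2.7.1, Bowtie2 2.2.5, Trimmomatic 0.39, deepTools 3.5.1 and SAMtools 1.18. Their order, thresholds and control libraries are not given in the sources used here, and depth per library is unknown.

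All peaks on the assembled chromosomes (X, Y, 4 and the arms of 2 and 3) were analysed in Python 3.11.15 with numpy 2.4.6. Gene positions came from a RefSeq table of the Release 6 assembly (13946 protein-coding, 260 microRNA and 32 snRNA genes), which holds no strand or sequence, so windows lay at both gene ends and the planned promoter motif search was not run. Of 345 symbols or patterns in 31 gene lists, 6 had no record. Totals were compared by two-sided exact permutation over lists, and regions and genes by counts. The calling of classes was tested on simulated lists. Centromere-proximal windows lay beyond 22 Mb on 2L and X and 23 Mb on 3L, and below 6 Mb on 2R and 4 Mb on 3R. Named genes were the 8 lost and 8 gained with the longest mean peaks, and up to 4 bound members of each list. Added were the 5 kept genes with the largest log2 ratio in each direction among those whose groups did not overlap. All bound Integrator and snRNA genes were also named. Others were named after their values were seen. Members, lists and rules were chosen with earlier results of these data known. Alternatives are given in the closing section. Same-numbered replicates are not stated to share a collection, and their deviations in log2 peak length over 4430 kept genes correlated at r = -0.03, so they were not paired.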

Additional observations from a re-analysis of the deposited data

How the results depend on the processing

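Every tested difference kept a p of at least 0.111 under all alternatives. The share at gene ends stayed higher in the mutant and the centromere-proximal share lower. The log2 ratio of peak number ranged from -0.35 to 0.17 and that of covered length from -0.35 to 0.24 when a list was left out. The ratio of median peak length was -0.0097 with peaks of at least 500 bp and -0.0023 when every list was trimmed to as many of its longest peaks as the shortest one holds, a setting that gives no value for peak number. With the replicate block the gene-end difference of 7.29 points had the smallest possible p (exact permutation within pairs, p = 0.5). That setting leaves every difference as it was by construction, so it could change no call.

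With a list left out, a peak in the other one suffices, which raises the counts of changes by construction. Kept regions then ranged from 49.9% to 86.1%, lost from 13.9% to 31.1% and gained from 9.35% to 21.7%. Kept genes ranged from 4527 to 5095, lost from 264 to 635, gained from 348 to 916, kept genes with longer mutant peaks from 1282 to 2285 and with shorter ones from 873 to 2112. Heat shock genes ranged from 7 to 10 shorter and 0 to 4 longer, ribosomal protein genes from 32 to 60 longer and 7 to 25 shorter, snRNA genes from 5 to 9 longer and 1 to 5 shorter, and muscle genes from 3 to 7 longer. The difference in IntS11 share between kept and lost regions, 46.0 points on average, ranged from 36.01 to 46.8 then.

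With peaks of at least 500 bp, kept genes numbered 2882, of which 526 were longer and 423 shorter, and the IntS11 difference was 42.2 points. It was 45.3 points on the chromosome arms alone and 45.1 with an overlap of at least 50% of the shorter interval. IntS11 itself passed from a mutant-sided to a wild-type-sided call (-0.5) with peaks of at least 500 bp. With joined intervals 2 snRNA genes were shorter, and over the whole gene 5 muscle genes were longer. The cause of these shifts was not tested. Windows at gene starts alone could not be run without strand. The alternatives for peak length at gene lists, IntS11 and the stage difference were chosen after seeing the data. Positions alone show no change in the height of a peak, and the depth behind each list is unknown.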

Other observations

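Small noncoding genes were read with the same windows. Of 269 snoRNA genes, whose RNAs guide rRNA modification and often lie in introns of other genes, 108 were bound in wild-type larvae and 131 in the mutant, with 103 kept, 1 lost and 9 gained. Of 290 tRNA genes, which Pol III transcribes, 78 were bound in wild type and 65 in the mutant, with 52 kept, 5 lost and 3 gained. Of 260 microRNA genes, 30 were bound in wild type and 31 in the mutant, with 27 kept, 0 lost and 3 gained. Over the 14238 genes, 88.2% of those bound in wild type were kept and 2.63% lost, and 4.61% of those bound in the mutant were gained. These windows can catch peaks of neighbouring or host genes.

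Kept genes with longer mutant peaks were bound by IntS11 in embryos at 2.5–3 h in 70.6% of cases, those with shorter ones in 62.1% and those whose groups overlapped in 70.0%. Among lost genes 31.1% were bound by IntS11 in embryos, among gained genes 44.6%, and among genes with no larval peak 11.4%. GAF was bound in embryos at 61.4% of kept, 36.4% of lost and 25.1% of gained genes and at 10.7% of genes with no larval peak. At kept genes of at least 2000 bp, the median share of the gene body under Pol II peaks was 9.41% and 6.64% in wild-type and 7.65% and 8.65% in mutant larvae, so the groups overlapped.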
